A study of Homo sapiens with 10 samples.

Results

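The HOX genes are the homeobox transcription factor genes of the HOXA, HOXB, HOXC and HOXD clusters. The 38 protein-coding members described here were taken by name, cluster letter plus number, from 57445 gene identifiers in the count tables, and each matched 1 identifier: 10 in HOXA on chromosome 7, 10 in HOXB on chromosome 17, 9 in HOXC on chromosome 12 and 9 in HOXD on chromosome 2. Of the 38, 17 passed a filter on low counts and could be tested, 19 had at most 10 counts in any library, and 2 (HOXB1 and HOXC12) had no count at all. For HOXC12, 72.65% of the exon bases are shared with another gene on the same strand, and reads there were not counted.

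Messenger RNA of PC3 cells, an established human line grown from a bone metastasis of a prostate cancer, was sequenced in 10 libraries that fall into 5 groups of 2. Cells of 2 groups stably expressed a hairpin against RNF2, labelled RNF2 shRNA1 and RNF2 shRNA2, and cells of 2 more received PRT4165 or GW-516 for 48 hours; cells stably expressing a Scramble hairpin were the control of all 4. RNF2 encodes the E3 ligase that ubiquitinates histone H2A in Polycomb repressive complex 1, PRT4165 is an inhibitor of that ligase activity, and the labels do not describe GW-516. No vehicle group is among the labels, so that for both compounds the effects of compound, vehicle, hairpin vector and separate culture cannot be told apart. Whether libraries of 1 group stem from different cultures is not said in the labels, and p-values then measure only the spread between these libraries.

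HOX proteins bind DNA, usually together with PBX and MEIS partners, and give cells their position along the body axis. Genes at the 3′ end of a cluster, with low numbers, act anteriorly, and those at the 5′ end, with high numbers, act posteriorly and in the genital and urinary tract, where HOXB13 is a classical gene of the prostate epithelium and HOXA13 of the urogenital sinus. In most cells, stretches of the clusters that are not in use are held silent by Polycomb complexes, in which the ubiquitin ligase complex and the methyltransferase complex of EZH2 act together, and stretches in use are kept active by MLL-type methyltransferases such as KMT2A.

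The targeted gene was checked first. RNF2 stood at 12.1 and 12.0 CPM (TMM-normalized counts relative to the library total) in the RNF2 shRNA1 libraries and at 33.5 and 35.3 CPM in those labelled RNF2 shRNA2, against 30.6 and 28.3 CPM in Scramble. BMI1, which encodes the partner subunit of RNF2, stood at 53.0 and 61.6 CPM in the libraries labelled RNF2 shRNA2, against 251 and 255 CPM in Scramble. These 2 libraries therefore go against their label, and they are called by it below only as a name. Total counts ran from 65877850 to 108380198 per library. The 5 epithelial markers EPCAM, CDH1, KRT8, KRT18 and KRT19 summed to 1158 to 1160 CPM in RNF2 shRNA1, 1167 to 1196 CPM in RNF2 shRNA2, 1283 to 1359 CPM in PRT4165 and 1564 to 1590.0 CPM in GW-516, against 1237 to 1247 CPM in Scramble. With each compound 4 of the 5 were called higher and KRT18 lower, where 19.9% of all genes rose with PRT4165 and 26.5% with GW-516. CDH1 had 40.9 and 40.5 CPM in PRT4165 and 39.3 and 39.1 CPM in GW-516, against 15.3 and 15.6 CPM in Scramble. With RNF2 shRNA1 2 of the 5 markers were called higher and 2 lower (26.2% and 28.6% of all genes). With RNF2 shRNA2 1 was called higher and 3 lower (21.1% and 21.0%). These markers thus moved with both compounds, as HOXA5 and HOXA6 did, and also in the hairpin groups, where HOXA5 and HOXA6 did not pass. Their part in the HOX values was not tested. By contrast, 4 haematopoietic markers summed to at most 0.533 CPM, 2 endothelial ones to at most 0.189 CPM, and KLK2, an androgen-driven gene of luminal prostate cells, was at 0 in every library. Of 5 fibroblast markers COL1A1 and COL1A2 gave nearly all of a sum of 165 to 276 CPM in the tested groups and 276 to 279.8 CPM in Scramble; the part of this difference in the HOX values was not tested. The 2 libraries of RNF2 shRNA1, of GW-516 and of Scramble were nearly alike, with a chi-square of 1.09, 1.10 and 1.08 per degree of freedom between halved counts, against 6.11 for the pair labelled RNF2 shRNA2 and 3.44 for PRT4165.

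Promoters of 4 HOXA genes are shown because much of the description below is about these genes. In HOXA4, HOXA6 and HOXA7 every library of both compounds stood above every library of the RNF2 hairpin groups, a pattern picked out from these values and not tested, and HOXA13 was lower than in Scramble in all 4 groups. Each is the RefSeq window (GRCh38.p14, minus strand) from 250 bases before to 50 bases after a RefSeq start of the gene, 5′ to 3′. Capitals mark every CG dinucleotide, the step of C followed by G whose C can be methylated and which is dense in CpG islands. For HOXA6 and HOXA7 the gene models used for counting begin further upstream than these starts. The windows lie at chr7:27130708-27131007 (HOXA4), chr7:27147725-27148024 (HOXA6), chr7:27156626-27156925 (HOXA7) and chr7:27200042-27200341 (HOXA13).
HOXA4: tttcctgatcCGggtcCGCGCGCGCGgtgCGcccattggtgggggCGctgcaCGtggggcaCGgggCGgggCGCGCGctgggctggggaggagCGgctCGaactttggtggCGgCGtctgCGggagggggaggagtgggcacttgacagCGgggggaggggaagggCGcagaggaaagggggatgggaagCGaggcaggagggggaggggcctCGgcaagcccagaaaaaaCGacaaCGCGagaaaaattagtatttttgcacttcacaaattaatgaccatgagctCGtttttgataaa
HOXA6: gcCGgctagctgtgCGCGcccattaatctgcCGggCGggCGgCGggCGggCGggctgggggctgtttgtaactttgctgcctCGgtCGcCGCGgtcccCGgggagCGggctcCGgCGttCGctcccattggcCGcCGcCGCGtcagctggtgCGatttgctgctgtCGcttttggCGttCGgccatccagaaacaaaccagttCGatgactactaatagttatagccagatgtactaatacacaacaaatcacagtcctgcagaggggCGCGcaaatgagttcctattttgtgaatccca
HOXA7: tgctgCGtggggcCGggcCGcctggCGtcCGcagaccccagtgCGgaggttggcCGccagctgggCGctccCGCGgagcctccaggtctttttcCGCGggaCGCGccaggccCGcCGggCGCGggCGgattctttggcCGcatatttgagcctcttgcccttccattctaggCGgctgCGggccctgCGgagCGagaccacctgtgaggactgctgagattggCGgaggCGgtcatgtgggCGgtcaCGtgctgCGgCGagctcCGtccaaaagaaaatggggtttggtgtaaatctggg
HOXA13: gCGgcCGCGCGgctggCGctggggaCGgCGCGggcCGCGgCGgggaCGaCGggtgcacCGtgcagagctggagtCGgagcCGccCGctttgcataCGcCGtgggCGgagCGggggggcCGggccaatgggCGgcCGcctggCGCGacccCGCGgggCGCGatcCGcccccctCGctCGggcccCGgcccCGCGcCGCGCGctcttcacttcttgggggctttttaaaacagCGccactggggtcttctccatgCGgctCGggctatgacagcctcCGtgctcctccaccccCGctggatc

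The windows of HOXA4, HOXA6 and HOXA7 held 27, 29 and 31 CG dinucleotides and that of HOXA13 held 44, against a median of 14 over 35116 promoters of the same length. As many as 44 were found in 4.19% of those promoters, and as many as 27 in 28.2%. The TATA box letters TATAAA, searched on both strands, were in none of these 4 windows and in 11.5% of all promoters. The window of HOXA13 shared 171 bases with that of HOTTIP, a long non-coding RNA read in the opposite direction. In all, 14 of the 17 tested members had a promoter in the table, and HOXA5, HOXB9 and HOXB13 did not.

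PC3 cells used HOXB13 and the posterior part of HOXA, and little else of the 4 clusters. Compared per kb of the exon sequence that a gene does not share with a neighbour on its strand, HOXB13 came first with a mean over the 5 groups of 92.2 CPM per kb. HOXA9 (10.6), HOXA13 (9.06), HOXA11 (7.58) and HOXA10 (4.47 CPM per kb) followed. HOXA9, HOXA13 and HOXA11 overlapped in level, and their order differed between groups: HOXA9 was at 10.8, HOXA11 at 9.11 and HOXA13 at 7.61 CPM per kb in GW-516, whereas HOXA13 was the highest of them in Scramble at 12.7, with HOXA9 at 10.2 and HOXA11 at 8.00 CPM per kb. HOXA3 (1.28) and HOXA4 (0.901 CPM per kb) came next, and the other 10 tested members lay between 0.0497 CPM per kb for HOXD1 and 0.436 for HOXD4.

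**Figure D1:**
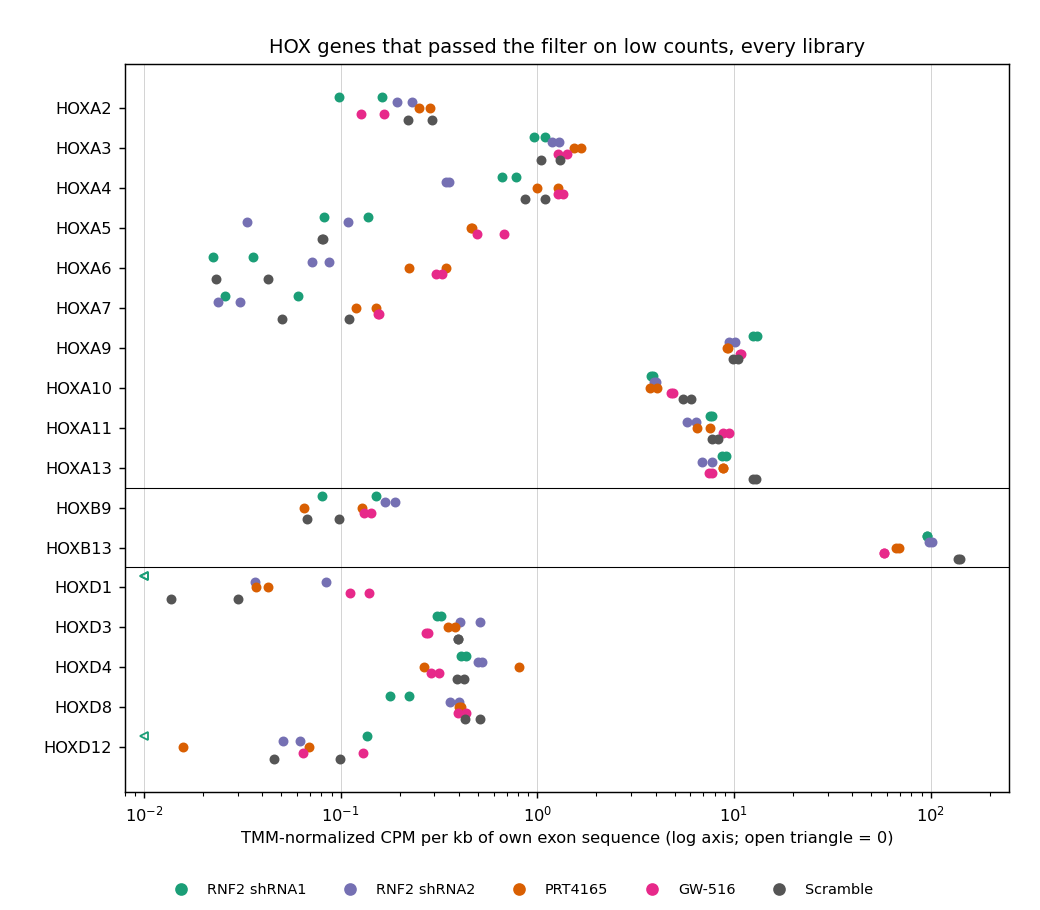
Level of the 17 tested HOX genes in every library, as TMM-normalized CPM per kb of own exon sequence on a log axis; each point is 1 library, coloured by group, and open triangles stand for a count of 0. HOXB13 lies between 57.8 CPM per kb (mean of GW-516) and 139 CPM per kb (mean of Scramble), HOXA9 to HOXA13 form the next set, and HOXA5, HOXA6 and HOXD1 show the widest gaps between groups.

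The share of all member counts that came from HOXB13 was 75.8% and 75.6% in RNF2 shRNA1, 79.2% and 78.9% in RNF2 shRNA2, 69.6% and 69.5% in PRT4165, 65.07% and 65.07% in GW-516, and 79.1% and 78.8% in Scramble. The 2 compound groups thus lay below the other 3 with no overlap, and the HOXA share was 29.4% and 29.3% in PRT4165 and 33.7% and 33.8% in GW-516, against 20.3% and 20.5% in Scramble. HOXB13 makes up most of the sum and was itself lower with both compounds, so this share does not show a rise of HOXA levels. HOXA13, the HOXA gene of highest CPM, had means of 41.1 CPM in PRT4165 and 35.5 CPM in GW-516, against 59.3 CPM in Scramble. HOXA5 and HOXA6, which are scarce, were higher with both compounds. HOXC gave at most 0.0459% and HOXD at most 0.965% of member counts in any library. HOXC6, a gene often reported in prostate tumours, was among the HOXC genes that did not pass the filter.

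The members with few or no counts were HOXB2 to HOXB8 (at most 8 counts in a library), HOXC4, HOXC5, HOXC6, HOXC8, HOXC9, HOXC10, HOXC11 and HOXC13 (at most 7 counts) and HOXD9, HOXD10, HOXD11 and HOXD13 (at most 10 counts). For these, changes were not detectable at this depth. Of the 17 tested members, 11 were above the minimum of 0.140 CPM in both libraries of all 5 groups. The filter asked for 2 libraries above the minimum, counted before TMM scaling. HOXA6 passed through the compound libraries alone, with 4 above the minimum and 0 of the other 6. HOXD1 needed GW-516, with 1 library above the minimum elsewhere, and HOXD4 needed RNF2 shRNA2, also with 1 elsewhere. HOXA5 and HOXA7 were above it in all 4 compound libraries and in 2 others, and HOXD12 in 3 libraries of 3 groups. Members that passed through a group were bound to be high there, so the counts of members below serve as a description and are read against the share of all genes called.

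Each tested group was set against Scramble with edgeR, calling genes whose adjusted p was below 0.05. With RNF2 shRNA1, 1 member rose and 6 fell, where 26.2% of all 18478 tested genes rose and 28.6% fell. In the libraries labelled RNF2 shRNA2, 1 rose and 5 fell (21.1% and 21.0% of all genes). With PRT4165, 3 rose and 3 fell (19.9% and 21.7%), and with GW-516, 4 rose and 4 fell (26.5% and 29.0%). The median log2 fold change of the 17 tested members was -0.31, -0.26, 0.06 and 0.19 in this order of groups, and that of all tested genes -0.015, 0.0086, -0.012 and -0.0025. All 4 comparisons share the Scramble libraries, so a gene that was high or low in these moves in each of them.

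**Figure D2:**
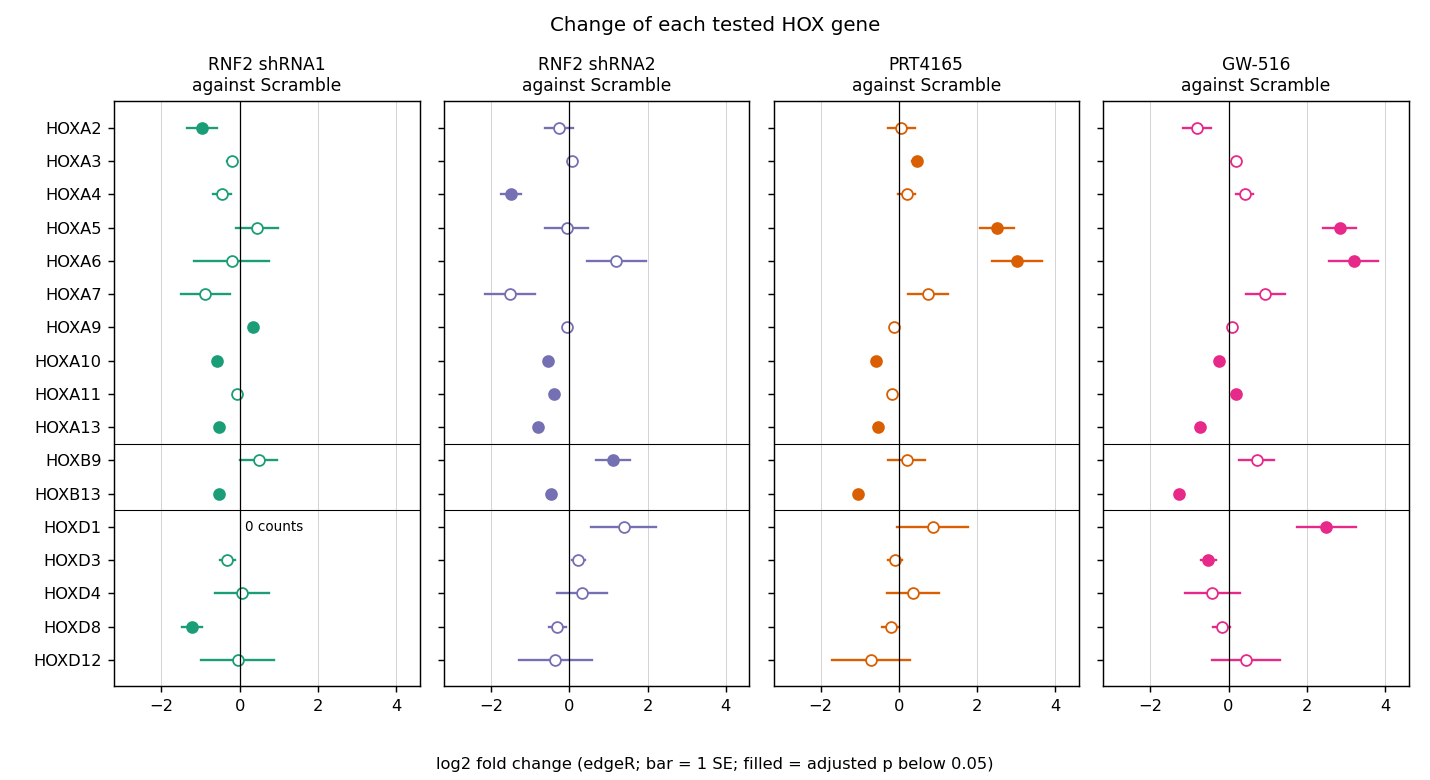
Log2 fold change of each tested HOX gene against Scramble, 1 panel per tested group, genes in number order within HOXA, HOXB and HOXD; bars are 1 SE of the edgeR fit and filled points have an adjusted p below 0.05. HOXA10, HOXA13 and HOXB13 are filled and left of 0 in all 4 panels, HOXA5 and HOXA6 are filled and right of 0 with PRT4165 and GW-516, and HOXD1, with 0 counts in RNF2 shRNA1, is not drawn there.

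HOXB13 (chr17:46802125-46806540, minus strand, GRCh37), which encodes a cofactor and regulator of the androgen receptor in prostate cells, was the most abundant member and was lower in every tested group. It had 333 and 333 CPM in RNF2 shRNA1, 340 and 354 CPM in RNF2 shRNA2, 230.4 and 240.2 CPM in PRT4165 and 201 and 200.5 CPM in GW-516, against 487 and 478 CPM in Scramble. No group overlapped with Scramble, and the compound groups lay below both hairpin groups. The fold was 1.45 lower with RNF2 shRNA1 (log2 -0.53, SE 0.03, adjusted p = 6.47e-14), 1.39 lower with RNF2 shRNA2 (log2 -0.48, SE 0.03, adjusted p = 1.63e-12), 2.05 lower with PRT4165 (log2 -1.04, SE 0.03, adjusted p = 5.29e-19) and 2.41 lower with GW-516 (log2 -1.27, SE 0.03, adjusted p = 5.79e-21). HOXB13 also fell with PRT4165 against RNF2 shRNA1 (1.42-fold, adjusted p = 2.46e-13) and against RNF2 shRNA2 (1.48-fold, adjusted p = 3.63e-14), and with GW-516 against PRT4165 (1.17-fold, adjusted p = 6.10e-07). The calls on HOXB13 held under all alternatives tried.

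HOXB9, the only other HOXB gene tested and a posterior trunk gene, was scarce. It had 0.458 and 0.513 CPM in RNF2 shRNA2, against 0.265 and 0.182 CPM in Scramble, and ran from 0.177 to 0.411 CPM in the other 3 groups. Its rise in RNF2 shRNA2 (2.16-fold, SE 0.43 on the log2 scale, adjusted p = 0.0408) was lost when any library of either group was left out, with adjusted p from 0.0526 (without RNF2 shRNA2 replicate 1) to 0.219 (without Scramble replicate 2), as well as without either GW-516 library (0.0542 and 0.0534) and with DESeq2 (0.129).

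The middle of HOXA divided the groups. HOXA5 (chr7:27180671-27183287, minus strand, GRCh37), a regulator of lung and mammary development, had 0.782 and 0.793 CPM in PRT4165 and 1.16 and 0.841 CPM in GW-516, against 0.140 and 0.137 CPM in Scramble. The RNF2 shRNA1 libraries had 0.235 and 0.140 CPM and those labelled RNF2 shRNA2 0.0572 and 0.187 CPM. Both compound groups were thus above all 6 hairpin libraries, with 117 and 173 summed counts against 19 in Scramble. HOXA5 rose 5.64-fold with PRT4165 (log2 2.50, SE 0.44, adjusted p = 4.28e-05) and 7.16-fold with GW-516 (log2 2.84, SE 0.42, adjusted p = 3.00e-06).

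HOXA6 (chr7:27185015-27192217, minus strand), whose protein patterns the thoracic skeleton in mice, followed the same order. It had 0.290 and 0.447 CPM in PRT4165 and 0.398 and 0.426 CPM in GW-516, against 0.0558 and 0.0304 CPM in Scramble. The hairpin groups had 0.0293 and 0.0468 CPM (RNF2 shRNA1) and 0.114 and 0.0933 CPM (RNF2 shRNA2), below both compound groups. These levels rest on 54 and 71 summed counts with the compounds and on 6 in Scramble. HOXA6 rose 8.15-fold with PRT4165 (log2 3.03, SE 0.64, adjusted p = 0.000358) and 9.15-fold with GW-516 (log2 3.19, SE 0.63, adjusted p = 0.000101). HOXA6 entered the test through these same compound libraries, so the filter favoured a rise. In the fit with no filter on low counts its adjusted p was 6.51e-05 with PRT4165 and 8.26e-06 with GW-516. Of its exon bases 18.4% are shared on the same strand with HOXA3, and reads there were not counted for either gene.

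HOXA7 (chr7:27193335-27197555, minus strand), a trunk gene studied with HOXA9 in leukaemia, had 0.366 and 0.288 CPM in PRT4165 and 0.375 and 0.379 CPM in GW-516, against 0.265 and 0.122 CPM in Scramble. The Scramble libraries differed by more than 2-fold between them, and neither compound comparison passed (log2 0.75, SE 0.52, adjusted p = 0.270 with PRT4165; log2 0.94, SE 0.51, adjusted p = 0.119 with GW-516). HOXA7 had 0.147 and 0.0624 CPM in RNF2 shRNA1 and 0.0572 and 0.0746 CPM in RNF2 shRNA2, and the pair labelled RNF2 shRNA2 lay below Scramble without passing (log2 -1.51, adjusted p = 0.0555).

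HOXA4 (chr7:27168126-27170418, minus strand), a gene of the neck and upper trunk region, was lower in 1 group. It had 0.415 and 0.429 CPM in RNF2 shRNA2, against 1.33 and 1.05 CPM in Scramble, a 2.81-fold decrease (log2 -1.49, SE 0.25, adjusted p = 2.87e-05). The other groups had 0.939 and 0.795 CPM (RNF2 shRNA1), 1.20 and 1.54 CPM (PRT4165) and 1.53 and 1.63 CPM (GW-516), and none of these passed against Scramble (adjusted p = 0.107, 0.512 and 0.109). The RNF2 shRNA2 libraries were also below those of RNF2 shRNA1, by 2.05-fold (adjusted p = 0.00141). Of the exon bases of HOXA4, 31.0% are shared on the same strand with HOXA3, and reads there were not counted for either gene.

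**Figure D3:**
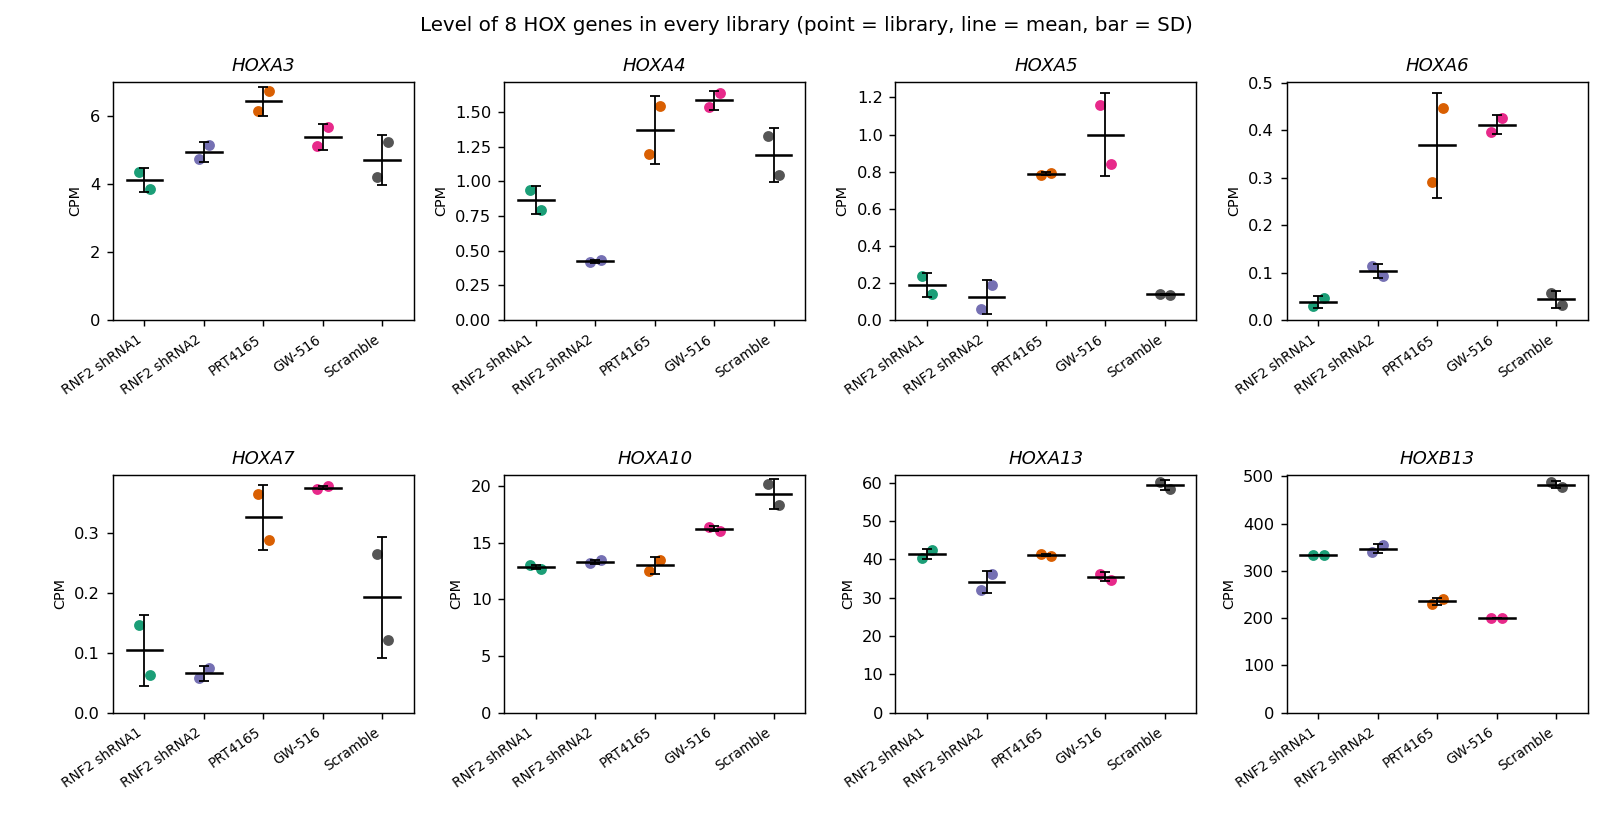
TMM-normalized CPM of 8 HOX genes in every library; points are libraries, black lines group means and bars the SD of 2 libraries, with the axis of each panel starting at 0. HOXA5 and HOXA6 are several-fold higher with PRT4165 and GW-516 than in the 3 hairpin groups, whereas HOXA13 and HOXB13 are highest in Scramble, at means of 59.3 and 483 CPM.

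HOXA3 and HOXA2, genes of the pharyngeal and hindbrain region, moved less. HOXA3 had 6.14 and 6.74 CPM in PRT4165, against 4.20 and 5.23 CPM in Scramble, and rose 1.37-fold (SE 0.12 on the log2 scale, adjusted p = 0.00326), a call that was lost without Scramble replicate 1 (adjusted p = 0.0969). HOXA2 had 0.337 and 0.203 CPM in RNF2 shRNA1, against 0.600 and 0.456 CPM in Scramble, and fell 1.95-fold (log2 -0.96, SE 0.39, adjusted p = 0.0385). The fall of HOXA2 was lost without RNF2 shRNA1 replicate 2 (0.272), without Scramble replicate 1 (0.228) and with DESeq2 (0.128). It was also lost when each near-identical pair was summed to 1 sample (0.148) and with no filter on low counts (0.0641).

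The posterior HOXA genes, which pattern limbs and the reproductive tract, were the abundant ones of their cluster, and their changes were small against their level. HOXA13 (chr7:27233122-27239725, minus strand, GRCh37) had 40.5 and 42.3 CPM in RNF2 shRNA1, 32.0 and 36.2 CPM in RNF2 shRNA2, 41.3 and 40.9 CPM in PRT4165 and 36.3 and 34.7 CPM in GW-516, against 60.3 and 58.4 CPM in Scramble. Every library of the 4 tested groups was below both Scramble libraries. The fold was 1.43 lower with RNF2 shRNA1 (adjusted p = 4.04e-09), 1.74 lower with RNF2 shRNA2 (adjusted p = 5.12e-12), 1.44 lower with PRT4165 (adjusted p = 6.09e-09) and 1.67 lower with GW-516 (adjusted p = 6.59e-12), each with an SE of 0.05 on the log2 scale.

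HOXA10, which is needed for uterine and vas deferens development, was likewise lower in every tested group. It had 13.0 and 12.7 CPM in RNF2 shRNA1, 13.2 and 13.4 CPM in RNF2 shRNA2, 12.5 and 13.5 CPM in PRT4165 and 16.4 and 16.1 CPM in GW-516, against 20.2 and 18.4 CPM in Scramble. The GW-516 libraries lay between Scramble and the other groups. HOXA10 was lower by 1.50-fold with RNF2 shRNA1 (adjusted p = 7.29e-08), 1.45-fold with RNF2 shRNA2 (adjusted p = 4.53e-07), 1.49-fold with PRT4165 (adjusted p = 1.84e-07) and 1.19-fold with GW-516 (adjusted p = 0.00230). With GW-516 the call was lost without Scramble replicate 1 (0.101) and when each near-identical pair was summed to 1 sample (0.0671).

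HOXA9, the leukaemia-associated partner of MEIS1, did not share that direction. It had 26.0 and 27.2 CPM in RNF2 shRNA1, against 20.5 and 21.7 CPM in Scramble, and rose 1.26-fold (SE 0.06 on the log2 scale, adjusted p = 1.76e-05). In the other tested groups HOXA9 lay from 19.0 to 22.4 CPM and did not pass (adjusted p = 0.405 with RNF2 shRNA2, 0.0606 with PRT4165 and 0.227 with GW-516). HOXA11, a kidney, limb and uterus gene, had 13.4 and 14.7 CPM in RNF2 shRNA2, against 17.8 and 19.1 CPM in Scramble, and fell 1.31-fold (adjusted p = 0.000133). In GW-516 HOXA11 had 20.3 and 21.7 CPM and rose 1.14-fold (adjusted p = 0.0266). The rise was lost without Scramble replicate 1 (0.189), without GW-516 replicate 2 (0.171), with near-identical pairs summed (0.197) and with DESeq2 (0.0566). With RNF2 shRNA1 and PRT4165 HOXA11 did not pass (adjusted p = 0.480 and 0.0504).

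HOXD1 (chr2:177053307-177055688, plus strand, GRCh37), a gene linked to sensory neurons, was detected at low counts that differed between groups. It had 0.227 and 0.284 CPM in GW-516, against 0.0279 and 0.0608 CPM in Scramble, from 44 and 6 summed counts, and no count in either RNF2 shRNA1 library. The libraries labelled RNF2 shRNA2 had 0.172 and 0.0746 CPM and those of PRT4165 had 0.0757 and 0.0865 CPM. HOXD1 rose 5.66-fold with GW-516 against Scramble (log2 2.50, SE 0.75, adjusted p = 0.00574). The call was lost without Scramble replicate 1 (0.0905), without GW-516 replicate 2 (0.0580) and when near-identical pairs were summed (0.0692). HOXD1 entered the test through its GW-516 libraries, and the adjusted p of this rise with no filter on low counts was 0.0109. Against RNF2 shRNA1, with a floor of 3 counts over the group, HOXD1 was at least 11.2-fold higher in GW-516. That contrast was added after seeing the data, and the filter favoured it, as HOXD1 passed through GW-516. Its value is thus a description with no test. With the same floor HOXD1 was at least 4.98-fold higher in RNF2 shRNA2 than in RNF2 shRNA1 (adjusted p = 0.00181). It was at least 1.93-fold lower in RNF2 shRNA1 than in Scramble (adjusted p = 0.0418). This call was lost without any one of 7 libraries (adjusted p up to 0.165, without Scramble replicate 2) and with the replicate block (0.0503). It was also lost with no filter on low counts (0.0570), with near-identical pairs summed (0.0934) and with DESeq2 (0.0589).

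HOXD8, a gene of the posterior trunk and kidney, had 0.587 and 0.468 CPM in RNF2 shRNA1, against 1.13 and 1.34 CPM in Scramble, and fell 2.33-fold (log2 -1.22, SE 0.25, adjusted p = 0.000174). In the other groups it ran from 0.952 to 1.14 CPM and did not pass (adjusted p = 0.296 with RNF2 shRNA2, 0.487 with PRT4165 and 0.517 with GW-516). HOXD3, a hindbrain and neck gene that also acts on cell adhesion genes, had 1.22 and 1.18 CPM in GW-516, against 1.72 and 1.72 CPM in Scramble, and fell 1.43-fold (adjusted p = 0.0193). Leaving out either library of GW-516 (adjusted p = 0.0756 without replicate 1 and 0.0955 without replicate 2) or of Scramble (0.0798 and 0.0799) took this call away. So did summing near-identical pairs (0.142) and DESeq2 (0.102). HOXD4 (0.0757 to 0.231 CPM) and HOXD12 (0 to 0.249 CPM) passed in none of the 4 comparisons, and 80.5% of the exon bases of HOXD4 are shared with HOXD3.

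The hairpin groups were also compared with each other. In the libraries labelled RNF2 shRNA2, 3 members were higher than in RNF2 shRNA1 and 4 lower, where 29.9% and 29.2% of all genes were. HOXD8 (1.89-fold higher, adjusted p = 0.00257) and HOXD1 were higher, as was HOXD3 (1.46-fold, adjusted p = 0.0112). The call on HOXD3 was lost without RNF2 shRNA2 replicate 2 (0.221), without RNF2 shRNA1 replicate 1 (0.0696), with near-identical pairs summed (0.0786) and with DESeq2 (0.0739). HOXA4 was lower, as were HOXA9 (1.32-fold, adjusted p = 1.08e-06), HOXA11 (1.25-fold, adjusted p = 0.000588) and HOXA13 (1.21-fold, adjusted p = 6.24e-05).

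GW-516 and PRT4165 differed in the posterior genes, and no difference between them passed the test for HOXA4 to HOXA7. Set against PRT4165, 4 members were higher with GW-516 and 2 lower, where 18.1% and 23.0% of all genes were. HOXA9 (1.16-fold, adjusted p = 0.00284), HOXA10 (1.25-fold, adjusted p = 0.000406) and HOXA11 (1.29-fold, adjusted p = 0.000171) were higher with GW-516, and HOXA13 (1.16-fold, adjusted p = 0.00176) and HOXB13 were lower. The fourth higher member, HOXD1 (3.12-fold, adjusted p = 0.0468), was lost without any one of the 10 libraries (adjusted p up to 0.249, without GW-516 replicate 2). When near-identical pairs were summed, HOXD1 (0.189) and HOXA9 (0.0596) were both lost. For HOXA5 the difference on the log2 scale was 0.34 with a 95% interval from -0.34 to 1.03, and for HOXA7 0.20 with an interval from -0.78 to 1.17, so that differences of up to about 2-fold in HOXA5 could not be resolved.

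The compounds were also set against the hairpin groups in the same fit, which leaves the Scramble values out. These contrasts were chosen after HOXA4 to HOXA7 had been seen high with both compounds and low in both hairpin groups, so the values of these 4 genes are a description with no test. HOXA4 was 1.57 to 3.73-fold higher over the 4 contrasts, HOXA5 4.15 to 7.51-fold, HOXA6 3.54 to 10.5-fold and HOXA7 3.08 to 5.49-fold. With PRT4165, 8 of the 17 tested members were higher than in RNF2 shRNA1 (27.4% of all genes) and 7 higher than in RNF2 shRNA2 (25.1%). With GW-516, 9 were higher than in RNF2 shRNA1 (31.0%) and 7 than in RNF2 shRNA2 (29.3%). These counts include the 4 genes that led to the contrasts, and nothing is read from them.

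Long non-coding RNAs of the clusters were read beside the protein-coding genes; counting used strand, so that antisense RNAs were kept apart from the genes they face. Of 18 on the list 7 were tested. With RNF2 shRNA1 1 rose and 2 fell (26.2% and 28.6% of all genes), and with RNF2 shRNA2 1 rose and 4 fell (21.1% and 21.0%). With PRT4165 1 rose and 2 fell (19.9% and 21.7%). With GW-516 4 rose and 0 fell (26.5% and 29.0%), with HOTTIP, HOXA-AS2 and HOXD-AS2 not passing. HOTAIRM1, transcribed at the 3′ end of HOXA and induced in myeloid differentiation, had 12.5 and 12.1 CPM in RNF2 shRNA1, 5.02 and 5.29 CPM in RNF2 shRNA2, 13.7 and 14.0 CPM in PRT4165 and 20.7 and 22.5 CPM in GW-516, against 6.99 and 7.47 CPM in Scramble. It rose with RNF2 shRNA1 (log2 0.77, adjusted p = 7.64e-09), PRT4165 (log2 0.94, adjusted p = 4.30e-10) and GW-516 (log2 1.58, adjusted p = 6.16e-15) and fell in RNF2 shRNA2 (log2 -0.48, adjusted p = 4.63e-05).

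HOTTIP, which is transcribed beside HOXA13 at the 5′ end and in human fibroblasts brings the WDR5 and MLL complex to 5′ HOXA genes, had 8.51 and 8.87 CPM in RNF2 shRNA1, 4.46 and 4.62 CPM in RNF2 shRNA2, 9.90 and 8.63 CPM in PRT4165 and 12.1 and 11.7 CPM in GW-516, against 12.9 and 11.3 CPM in Scramble. It fell with RNF2 shRNA1 (log2 -0.48, adjusted p = 5.73e-05), RNF2 shRNA2 (log2 -1.41, adjusted p = 7.45e-12) and PRT4165 (log2 -0.38, adjusted p = 0.000845, lost without Scramble replicate 1 at 0.0551), and did not pass with GW-516 (log2 -0.03, adjusted p = 0.778), in which HOXA13 was 1.67-fold lower.

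HOXA11-AS, antisense to HOXA11, had 7.26 and 6.96 CPM in RNF2 shRNA2, against 12.3 and 13.1 CPM in Scramble (log2 -0.84, adjusted p = 4.28e-09), and HOXA11 itself was lower in the same libraries. HOXA10-AS had 1.66 and 1.47 CPM in RNF2 shRNA1, against 2.78 and 2.96 CPM in Scramble (log2 -0.88, adjusted p = 6.08e-05). With GW-516 HOXA10-AS had 3.98 and 4.23 CPM and rose (log2 0.51, adjusted p = 0.00328), whereas HOXA10 was lower there; this rise was lost when near-identical pairs were summed (0.0544). HAGLR, in HOXD next to HOXD1, had 2.00 and 1.68 CPM in GW-516, against 0.754 and 1.16 CPM in Scramble (log2 0.95, adjusted p = 0.00557), and was lost without Scramble replicate 1 (0.0939) or GW-516 replicate 1 (0.0545). HOTAIR, the HOXC RNA that binds Polycomb complexes, had at most 0.0711 CPM in any library.

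**Figure D4:**
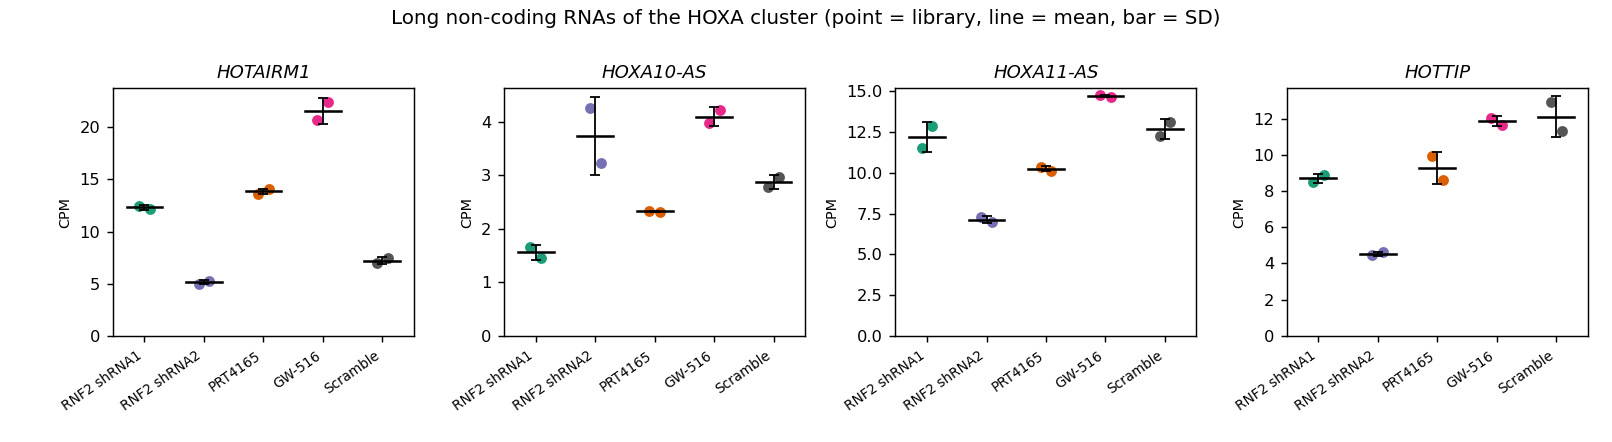
TMM-normalized CPM of 4 long non-coding RNAs of the HOXA cluster in every library, ordered from its 3′ to its 5′ end; points are libraries, black lines group means and bars the SD of 2 libraries. HOTAIRM1 is highest in GW-516, at a mean of 21.6 CPM against 7.23 CPM in Scramble, and HOTTIP is lowest in the libraries labelled RNF2 shRNA2, at a mean of 4.54 CPM against 12.1 CPM in Scramble.

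HOX proteins act with PBX, MEIS and PKNOX partners, and 8 of 9 of these genes were tested. With RNF2 shRNA1 3 rose and 2 fell (26.2% and 28.6% of all genes), and with RNF2 shRNA2 2 rose and 1 fell (21.1% and 21.0%). With PRT4165 6 rose and 1 fell (19.9% and 21.7%), and with GW-516 3 rose and 2 fell (26.5% and 29.0%). MEIS1 had 5.50 and 5.32 CPM in RNF2 shRNA1, 8.02 and 7.14 CPM in RNF2 shRNA2, 10.9 and 9.98 CPM in PRT4165 and 10.3 and 10.5 CPM in GW-516, against 8.15 and 8.10 CPM in Scramble. It fell with RNF2 shRNA1 (log2 -0.59, adjusted p = 7.95e-06), did not pass with RNF2 shRNA2 (adjusted p = 0.355) and rose with PRT4165 (log2 0.36, adjusted p = 0.00138) and GW-516 (log2 0.35, adjusted p = 0.00104). MEIS2 rose with both compounds (log2 0.46 with PRT4165, adjusted p = 0.000114; log2 0.43 with GW-516, adjusted p = 0.000161), and MEIS3 rose most with GW-516 (log2 1.51, adjusted p = 2.36e-06).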

How the data were processed

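RNA-seq libraries of PC3 cells were compared in 5 groups of 2 taken from the sample labels. The authors deposited raw counts per gene, 1 table per library, with no normalization. Per the file headers, featureCounts 1.4.3-p1 assigned reads to GENCODE 18 exons on the reverse strand, with no option for pairs, so each read end was counted, and with none for reads over several genes, so reads in exons that neighbouring HOX genes share on 1 strand were not counted. The submitters' processing notes name STAR without a version, DESeq2 1.8.1 and the build hg19 (GRCh37). The file headers name all libraries with a prefix that differs from the PC3 of the labels, and the groups here follow the labels. A table of Ensembl identifiers and symbols named 51488 of 57445 identifiers.

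Counts were fitted with edgeR 4.0.16 in R 4.3.3 (TMM factors 0.972 to 1.05, filterByExpr with a minimum count of 10, all 10 libraries in a model of 1 coefficient per group with 5 residual degrees of freedom, two-sided quasi-likelihood F tests with the robust option, p adjusted by Benjamini-Hochberg over 18478 genes and called below 0.05), tested on simulated data first. CPM are counts scaled to the TMM-normalized library total; means are given with SD over 2 libraries in the plots. Total counts of 65877850 to 108380198 put the filter at about 0.140 CPM. Since both ends of a fragment count, single counts are not independent. Alternatives were RLE size factors, no filter, 1 CPM in 2 libraries, DESeq2 1.42.0, limma 3.58.1 (voom), only the groups compared, a replicate block, halved counts, near-identical pairs summed, adjusted p below 0.01 and each library left out; the fit without both libraries labelled RNF2 shRNA2 and the contrasts of compounds with hairpin groups were added after seeing the data. Same-numbered libraries did not deviate together (correlations of -0.0969 to 0.018).

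Every member is accounted for, with fold change and adjusted p for those called. Context lists (HOX cofactors, cluster long non-coding RNAs, cluster neighbours, activators and upstream regulators, Polycomb genes, cell type markers) hold 101 entries, 3 of which matched no identifier, and are given by counts and their members of smallest adjusted p. Members and lists were chosen with earlier results of these data known. A further gene of the family is not reported here. Promoter sequences are from RefSeq (GRCh38.p14). Python 3.11.15 with pandas 2.3.3, numpy 2.4.6 and matplotlib 3.10.9 made tables and plots.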

Additional observations from a re-analysis of the deposited data

How the results depend on the processing

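Of 79 member calls in 6 comparisons and 4 added contrasts, 57 were lost under no alternative in which the gene was tested. Over 1594 alternative values of called members 1495 stayed called, 99 did not, and 0 changed direction. Alternatives that did not test a gene, such as 1 CPM in 2 libraries for HOXA6, are not among these values. The single member higher with RNF2 shRNA2 (HOXB9) became 0 with no filter on low counts, with 1 CPM in 2 libraries, with near-identical pairs summed, with DESeq2 and at an adjusted p below 0.01, and 0 to 1 with 1 library left out. With 1 CPM in 2 libraries, members higher than in Scramble numbered 1 with PRT4165 and 1 with GW-516, since HOXA6 and others lie below that filter. With pairs summed (2 residual degrees of freedom), GW-516 had 2 higher and 2 lower members against Scramble and 2 higher against PRT4165. With 1 library left out, GW-516 had 2 to 5 higher and 2 to 4 lower members against Scramble; Scramble replicate 1 gave the low end of both, and GW-516 replicate 2 that of the higher ones. With the replicate block, members numbered 1 higher and 5 lower for RNF2 shRNA1, 1 and 5 for RNF2 shRNA2, 3 and 4 for PRT4165, 4 and 4 for GW-516, 3 and 4 for RNF2 shRNA2 against RNF2 shRNA1, and 3 and 2 for GW-516 against PRT4165; replicate numbers only name the libraries. Except where the filter removes a gene or samples are fewer, the cause was not tested. Limits are 2 libraries a group, the RNF2 shRNA2 libraries that go against their label, the missing vehicle group, and counts below 20 per group for HOXA5, HOXA6 and HOXD1 in Scramble.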

Other observations

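Genes that flank the clusters were read as a comparison for the members, 12 of 15 being tested. With RNF2 shRNA1 5 rose and 3 fell (26.2% and 28.6% of all genes), and with RNF2 shRNA2 2 rose and 5 fell (21.1% and 21.0%). With PRT4165 3 rose and 2 fell (19.9% and 21.7%), and with GW-516 5 rose and 4 fell (26.5% and 29.0%). SKAP2, which encodes an adaptor protein and lies beyond the 3′ end of HOXA, had 59.6 and 54.0 CPM in PRT4165 and 62.0 and 62.4 CPM in GW-516, against 36.8 and 36.4 CPM in Scramble (log2 0.63 and 0.76, edgeR adjusted p = 5.15e-11 and 5.23e-13). The RNF2 shRNA1 libraries, at 44.1 and 45.1 CPM, also lay above Scramble, and those labelled RNF2 shRNA2 had 34.7 and 34.8 CPM. PRAC1, a small prostate and colon gene beside HOXB13, had 74.3 and 74.2 CPM in RNF2 shRNA1, 35.2 and 24.8 CPM in RNF2 shRNA2, 37.3 and 40.7 CPM in PRT4165 and 32.3 and 31.1 CPM in GW-516, against 56.5 and 57.8 CPM in Scramble, and fell in RNF2 shRNA2, PRT4165 and GW-516 (adjusted p = 0.00475, 0.0362 and 0.00517). In RNF2 shRNA1, where HOXB13 was lower, both PRAC1 values lay above Scramble without passing (log2 0.38, adjusted p = 0.0843). The fall of PRAC1 with PRT4165 was lost when any library of PRT4165, Scramble, RNF2 shRNA1 or GW-516 was left out (adjusted p up to 0.160, without PRT4165 replicate 1), and all 3 were lost when near-identical pairs were summed (0.151 with RNF2 shRNA2, 0.333 with PRT4165 and 0.192 with GW-516). CBX5, the heterochromatin protein gene near HOXC, fell with GW-516 (log2 -0.72, adjusted p = 2.85e-16), with 285 and 283 CPM against 466 and 469 CPM in Scramble. It was also called lower in RNF2 shRNA2, at 348 and 360 CPM, and in RNF2 shRNA1, at 431 and 426 CPM. The call in RNF2 shRNA1 was lost when near-identical pairs were summed (adjusted p = 0.214). PRT4165 had 466 and 441 CPM.

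Among activators and upstream regulators 10 of 14 were tested. Of these, 1 rose and 5 fell with RNF2 shRNA1 (26.2% and 28.6% of all genes), and 0 rose and 2 fell with RNF2 shRNA2 (21.1% and 21.0%). With PRT4165 2 rose and 4 fell (19.9% and 21.7%), and with GW-516 2 rose and 3 fell (26.5% and 29.0%). CYP26B1, which breaks down retinoic acid, the signal that opens HOX clusters from their 3′ end in embryos, had 0.883 and 0.808 CPM in PRT4165 and 1.18 and 1.82 CPM in GW-516, against 0.209 and 0.152 CPM in Scramble (log2 2.21 and 3.04, adjusted p = 2.68e-05 and 6.28e-08). RARB, a retinoic acid receptor gene, was lower in all 4 tested groups (log2 -1.10 with RNF2 shRNA1, -0.59 with RNF2 shRNA2, -0.75 with PRT4165 and -0.45 with GW-516). Its call in RNF2 shRNA2 was lost without Scramble replicate 1 (0.0595), and that in GW-516 without Scramble replicate 1 (0.188), without GW-516 replicate 1 (0.0798) and with DESeq2 (0.0569). WDR5, a subunit of the MLL complexes, fell with RNF2 shRNA1 (log2 -0.55), PRT4165 (log2 -0.25) and GW-516 (log2 -0.43), and KMT2A rose with PRT4165 (log2 0.44, adjusted p = 1.39e-07).

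Of 20 Polycomb genes tested, 5 rose and 10 fell with RNF2 shRNA1 (26.2% and 28.6% of all genes), and 7 rose and 7 fell with RNF2 shRNA2 (21.1% and 21.0%). With PRT4165 4 rose and 5 fell (19.9% and 21.7%), and with GW-516 5 rose and 10 fell (26.5% and 29.0%). EZH2, the methyltransferase of Polycomb repressive complex 2, had 57.2 and 53.7 CPM in PRT4165 and 53.3 and 50.9 CPM in GW-516, against 75.9 and 75.3 CPM in Scramble (log2 -0.45 and -0.54, adjusted p = 2.30e-09 and 3.34e-11), and fell with RNF2 shRNA1 (log2 -0.32, adjusted p = 2.40e-07). SUZ12, its partner subunit, was lower in all 4 groups (log2 -0.26 with RNF2 shRNA1, -0.19 with RNF2 shRNA2, -0.33 with PRT4165 and -0.39 with GW-516). The part of these changes in the HOX values was not tested.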
